A study of Arabidopsis thaliana with 20 samples.

Results

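The intergenic DNA of the large single-copy region (LSC) of the Arabidopsis thaliana plastid genome was examined in libraries of in vivo protein occupancy display (IPOD), in which protein-bound DNA is recovered after formaldehyde crosslinking and sequenced beside unselected input DNA. A 50 bp bin between positions 1 and 84150 was a member when its centre lay in no annotated TAIR10 plastid gene, with introns counted as genic. This gave 570 bins of the 1683 bins of that region (33.9%), and of 2564 bins over the whole plastid genome with 1 copy of the inverted repeat. The 570 bins formed 75 spacers, of which 62 held at least 3 bins. The longest, between psbE and petL, held 28 bins, and the median spacer held 6. Of the members, 282 lay in the 42 spacers with a protein-coding gene on each side, 207 in the 23 spacers with a tRNA gene on 1 side, and 81 in the 10 spacers with a tRNA gene on each side. Measured from the bin centre to the nearest tRNA gene, 81 bins lay within 100 bp, 113 between 100 and 300 bp, 128 between 300 and 1000 bp and 248 beyond 1000 bp. The rule used position and annotation alone, and no measured value.

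Plastid genes are read by a bacterial-type polymerase whose core is encoded in the plastid (PEP) and by a phage-type polymerase encoded in the nucleus (NEP). Most of their promoters lie in the spacers between genes, upstream of photosynthesis genes such as psbA, rbcL, psaA and psbD and of many tRNA genes. PEP works together with a set of nuclear-encoded associated proteins, of which pTAC3 is a member.

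The leaf libraries came from rosette leaves of 14-day-old wild-type Col0 plants grown on soil in a cycle of 16 h light and 8 h dark. Leaf chloroplasts were isolated first and then crosslinked with 4% formaldehyde for 4 h (4 IPOD and 4 input libraries). The seedling libraries came from 50 pooled seedlings each, 4 to 5 days old, grown on 0.5X MS plates in continuous light and crosslinked with 4% formaldehyde for 4 h before the chloroplasts were isolated. They were Col0 or pTAC3, with 3 IPOD and 3 input libraries each. The labels name the pTAC3 line ptac3 in the cell line field and give its genotype field as wild type, and the allele was not given in the sources used here. Leaf and seedling differed in age, tissue, growth and order of crosslinking, so their values stand side by side without a test. The labels do not say that replicates came from separate cultures, so p-values measure the spread between libraries, which may be technical.

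The values below are log2 ratios of IPOD to input depth, each library first divided by its own mean over the 2564 bins, and are called IPOD ratios. Centring each library on its median bin instead put the median of all bins at -0.02 in place of -0.13 in leaf, and at 0.01 in place of -0.07 in Col0 seedlings. The sign of a class mean this close to 0 therefore depends on the scaling, and differences between classes of bins do not. Mean depth per base was 54.5 to 3383 in leaf libraries and 113 to 441 in seedling libraries. Intergenic bins were covered less than the library mean in seedling input, at 0.60 to 0.64 of it in Col0 and 0.60 to 0.78 in pTAC3, and at 0.73 to 1.05 of it in leaf input. The lowest coverage was in the spacer between trnS (ArthCt091) and trnG (ArthCt092), where 3 bins at positions 8051 to 8200 had no read in 2 libraries each.

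Leaf pair 4 stood apart from the other leaf pairs. Across the 570 bins, the IPOD ratios of leaf pairs 1 and 3 were alike (Pearson r = 0.95), those of pair 2 were less like them (0.71 with pair 1 and 0.72 with pair 3), and those of pair 4 least (0.39, 0.088 and 0.41 with pairs 1, 2 and 3). The r values describe bins of the same libraries, which share reads with their neighbours, and carry no test. Between Col0 seedling pairs r was 0.53 to 0.69, and between pTAC3 pairs 0.071 to 0.20. The third Col0 seedling IPOD library is titled Col0 while its cell line label reads ptac3. It was kept as Col0 by its title, and results are also given without it.

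In Col0 seedlings, protein occupancy in the spacers was highest beside tRNA genes and was lower with distance up to about 300 bp. Bins centred within 50 bp of a tRNA gene had a mean IPOD ratio of 0.30 ± 0.12 (SD, n = 3 pairs). Col0 pairs join libraries of the same number, so pair values and SDs depend on that matching, and means do not. At 51 to 100 bp the mean was 0.20 ± 0.11, between 100 and 150 bp 0.14 ± 0.04, at 201 to 250 bp 0.11 ± 0.03 and at 251 to 300 bp 0.03 ± 0.05. Past 300 bp it lay below 0, at -0.07 ± 0.05 up to 350 bp and -0.15 ± 0.07 for 351 to 400 bp, except at 601 to 650 bp (0.03 ± 0.08). Beyond 1000 bp the mean was -0.05 ± 0.04. Bins beside a tRNA gene in the spacer order but over 300 bp away from it also averaged below 0, at -0.08 ± 0.06 over 97 bins. The difference between bins within 100 bp and beyond 1000 bp was 0.35, 0.41 and 0.14 in pairs 1, 2 and 3, a mean of 0.30 ± 0.14, and was positive in each pair. The smallest value was that of pair 3, which holds the library with conflicting labels, and without that IPOD library the difference was 0.36. The same contrast in leaf was 0.71, 0.64, 0.63 and 0.086 in pairs 1 to 4, with a mean of 0.51 ± 0.29 (n = 4). Without leaf IPOD library 4 it was 0.66. In pTAC3 seedlings it was 0.024, 0.012 and -0.009, a mean of 0.009 ± 0.017, so the 3 pTAC3 pairs lay below each Col0 and each leaf pair. No p is given for these differences, which summarise bins of the same libraries.

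**Figure D1:**
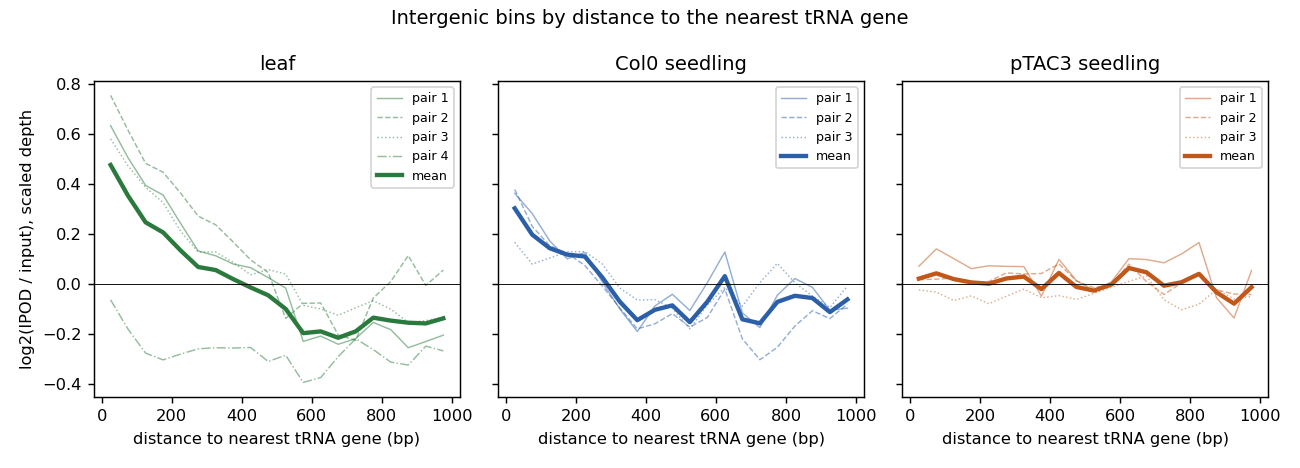
Mean IPOD ratio (y axis, log2 of IPOD over input scaled depth) of intergenic bins in 50 bp steps of distance to the nearest tRNA gene (x axis, bp), for leaf, Col0 seedling and pTAC3 seedling, with thin lines for library pairs and a thick line for their mean. The first step stands at 0.48 in leaf, 0.30 in Col0 seedlings and 0.02 in pTAC3 seedlings, and leaf pair 4 runs below 0 throughout.

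The leaf profile declined over a similar span, from 0.48 ± 0.37 within 50 bp through 0.25 ± 0.35 between 100 and 150 bp to 0.07 ± 0.23 at 251 to 300 bp. Pair 4 was at -0.06 in the first step, where pairs 1, 2 and 3 were at 0.63, 0.76 and 0.58. In pTAC3 seedlings the means of all steps up to 300 bp lay between 0.001 and 0.04, with SDs of 0.05 to 0.09. Near a tRNA gene, input depth itself was higher: bins within 100 bp had 0.80 to 0.84 of the library mean in Col0 seedling input, against 0.61 to 0.66 beyond 1000 bp. In pTAC3 input the same classes had 0.75 to 0.84 and 0.62 to 0.82. Removing the linear trend of the ratio on input depth left the near minus far difference at 0.31 in Col0 seedlings, 0.52 in leaf and 0.02 in pTAC3 seedlings. The same input libraries enter the ratio, and an effect of input depth was not tested. The tRNA genes themselves, whose bins share reads with these flanks, averaged 0.34 ± 0.28 in leaf, 0.19 ± 0.08 in Col0 seedlings and -0.01 ± 0.05 in pTAC3 seedlings. These 93 bins include introns of tRNA genes, so their mean is not that of the tRNA sequences alone. Per gene, the Col0 means ran from -0.14 at trnW to 0.89 at trnQ.

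In Col0 seedlings and leaf, the type of neighbouring gene gave the same order. Spacers between 2 tRNA genes averaged 0.20 ± 0.08 over their bins in Col0 seedlings, those with a tRNA gene on 1 side 0.04 ± 0.03, and those between protein-coding genes -0.06 ± 0.05. Leaf gave 0.32 ± 0.34, 0.12 ± 0.25 and -0.12 ± 0.11 in that order, whereas pTAC3 seedlings had -0.01 ± 0.05, 0.03 ± 0.06 and 0.02 ± 0.05, with the spacers between tRNA genes lowest. Bins beside at least 1 tRNA gene exceeded bins between protein-coding genes by 0.14 ± 0.05 in Col0 seedlings (range 0.11 to 0.20) and by 0.29 ± 0.20 in leaf, where pair 4 was at -0.001. The difference in pTAC3 seedlings was 0.0002 ± 0.016. At the edges of protein-coding genes the differences were smaller in leaf and Col0 seedlings. Among bins over 1000 bp from any tRNA gene, those within 100 bp of a protein-coding gene minus those farther away differed by -0.03 ± 0.07 in Col0 seedlings, -0.10 ± 0.11 in leaf and 0.05 ± 0.05 in pTAC3 seedlings, each with pairs on both sides of 0.

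**Figure D2:**
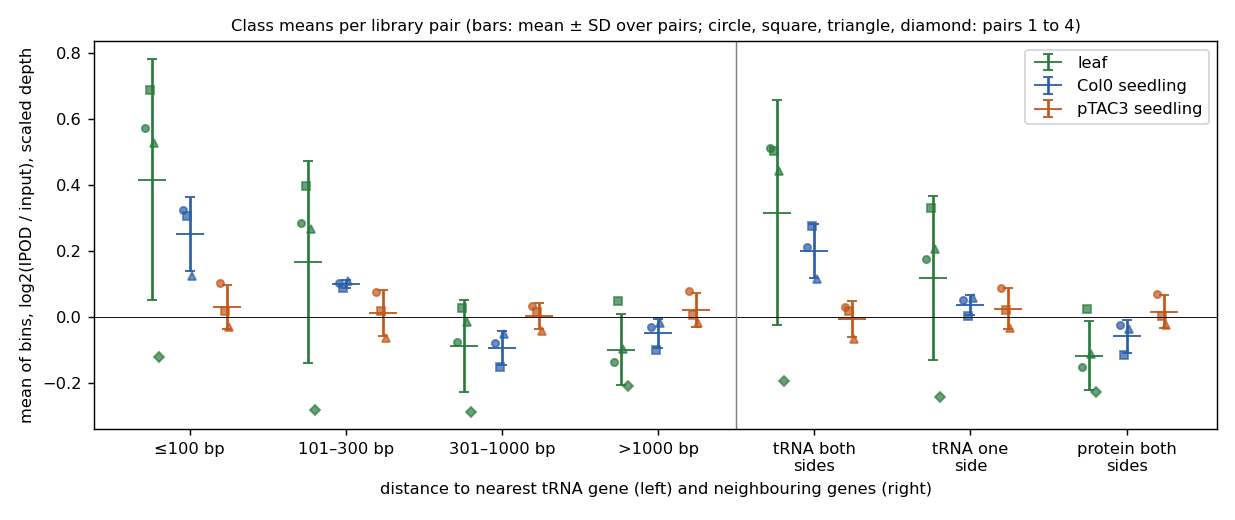
Mean IPOD ratio (y axis, log2) of intergenic bins by distance to the nearest tRNA gene (left of the line) and by the genes on each side of the spacer (right), for each library pair (symbols) with mean ± SD over pairs (bars). Col0 seedling pairs lie above 0 within 300 bp of a tRNA gene, pTAC3 pairs lie around 0 in every class, and leaf pair 4 (diamond) is the lowest leaf value in each class.

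Single bins were tested with limma over all 2564 bins. In Col0 seedlings 23 of the 570 intergenic bins were higher in IPOD than in input at an adjusted p under 0.05 (4.04%, against 1.99% of all bins), and 6 were lower (1.05%, against 1.21%). The higher calls were concentrated near tRNA genes: 14 of the 81 bins within 100 bp (17.3%) were called, 5 of 113 between 100 and 300 bp, 1 of 128 between 300 and 1000 bp and 3 of 248 beyond 1000 bp (1.21%). These counts moved with the scaling and the estimate of spread. Centring on the median bin gave 49 higher and 5 lower, robust trended variances 47 and 34, and the 6 Col0 libraries alone 67 and 40. The replicate block, whose numbers did not pair the Col0 libraries, gave 85 and 75 (11.1% and 14% of all bins). The counts also moved with single libraries. Without Col0 IPOD library 2 only 1 bin was called higher, without Col0 input library 2 only 3, without Col0 IPOD library 1 or input library 1 8 each, and without input library 3 11. Without the IPOD library with conflicting labels 28 were higher and 3 lower, and without pTAC3 input libraries 1 and 3 in turn 44 and 36 were higher, with 15 and 9 lower. Fewer libraries entered each of these fits.

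In leaf no bin was called without a replicate block (38 higher and 3 lower at an unadjusted p under 0.05, of 3.12% and 1.09% among all bins). Leaf libraries of the same number deviated together, so the fit with the replicate block is given beside it. Libraries 1 and 3 correlated nearly as well with another number (0.80 and 0.88, against 0.84 and 0.92 with their own). The ratios of pairs 1 and 3 were also alike (r = 0.95), yet the block fit counts these pairs as separate. That fit called 22 of the 570 intergenic bins higher (3.86%, against 5.07% of all bins) and 7 lower (1.23%, against 1.37%). Of the 22, 12 lay within 100 bp of a tRNA gene, 7 between 100 and 300 bp and 3 beyond 1000 bp. Without pair 1 or pair 3 no bin was called in that fit, without pair 2 3 were higher and 52 lower, and without pair 4 148 were higher and 40 lower. In pTAC3 seedlings limma called no bin with or without the block (unadjusted without it, 4 higher against 1.21% of all bins, and 4 lower against 0.468%).

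The 22 leaf bins were chosen without any seedling value, and their seedling values can therefore be read beside them. Their leaf ratios averaged 1.18, 1.21, 1.01 and 0.07 in pairs 1 to 4. In Col0 seedlings they averaged 0.64, 0.64 and 0.42 in pairs 1 to 3, a mean of 0.57 ± 0.13, and 22 of 22 lay above 0. In pTAC3 seedlings they averaged 0.19, 0.06 and 0.01, a mean of 0.09 ± 0.09. The pTAC3 value was below the Col0 value in 22 of 22 bins, against 30.7% of all bins and 41.8% of the intergenic bins. With libraries centred on the median bin, a count added after seeing the data, these shares were 53.7% and 64.2%, and the count stayed at 22 of 22. Of the 22 bins, 19 lay within 300 bp of a tRNA gene. Without centring, the pTAC3 value was above the Col0 value in 21 of the 81 intergenic bins within 100 bp. The same held in 55 of the 113 bins between 100 and 300 bp. The 22 bins lay in 12 spacers and came from the same libraries, so they are not independent and carry no test. Of the 22 bins, 11 were also among the 23 bins called higher in Col0 seedlings, which is 50% of the leaf list and 47.8% of the Col0 list. Conversely, the 23 Col0 bins averaged 1.01, 1.19, 0.87 and -0.01 in leaf pairs 1 to 4.

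Around the 22 tRNA genes of the region, the bins within 100 bp differed widely from gene to gene. In Col0 seedlings 19 genes had a mean above 0, and 16 had all 3 pairs above 0. The highest were trnL (ArthCt101) at 0.65 ± 0.18, trnP at 0.55 ± 0.23, trnE at 0.52 ± 0.40, trnfM at 0.48 ± 0.22 and trnG (ArthCt116) at 0.47 ± 0.16. The lowest were trnD at -0.15 ± 0.03, trnR (ArthCt093) at -0.08 ± 0.02 and trnW at -0.06 ± 0.08. Across the genes the Col0 median was 0.23, the leaf median 0.37 and the pTAC3 median 0.03. In leaf all 22 means lay above 0, though only 3 genes (trnP, trnG (ArthCt116) and trnW) had all 4 pairs above 0, and trnS (ArthCt125) had 1. The trnD, trnR (ArthCt093) and trnW flanks had leaf means of 0.27 ± 0.30, 0.17 ± 0.42 and 0.28 ± 0.17. In pTAC3 seedlings trnG (ArthCt116) was the highest at 0.26 ± 0.07 and trnH the lowest at -0.25 ± 0.13.

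**Figure D3:**
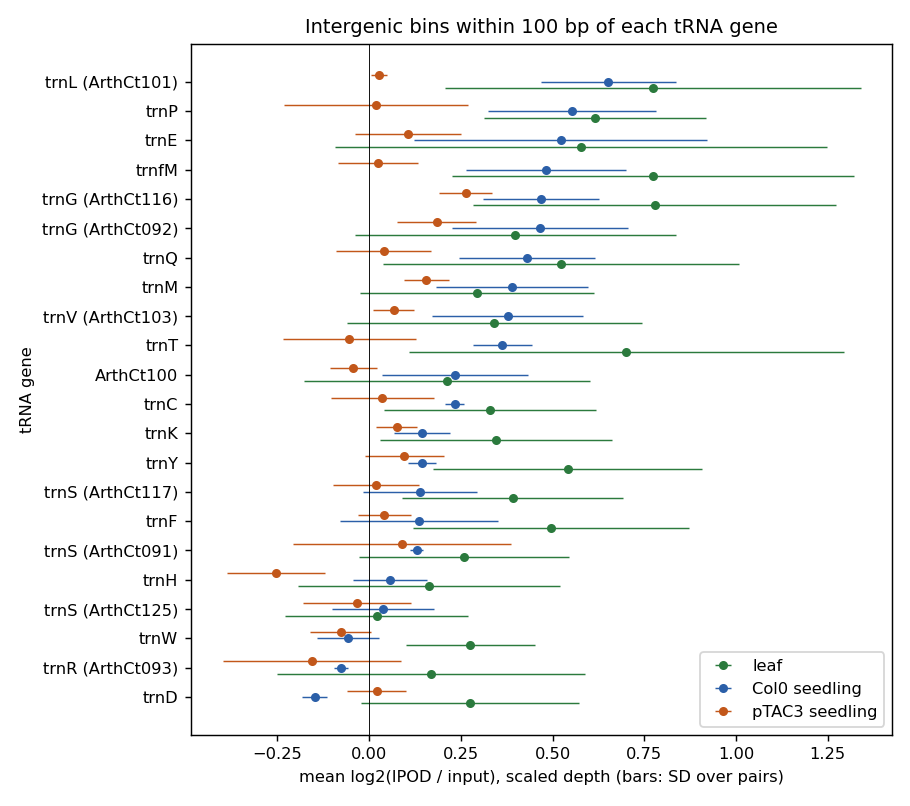
Mean IPOD ratio (x axis, log2) of the intergenic bins within 100 bp of each of the 22 tRNA genes (y axis, ordered by the Col0 seedling value), with bars of 1 SD over library pairs. Col0 values run from -0.15 at trnD to 0.65 at trnL (ArthCt101), and pTAC3 values from -0.25 at trnH to 0.26 at trnG (ArthCt116).

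At some tRNA genes the signal sat mainly on 1 side. At trnL (ArthCt101) the flank at higher coordinates, toward trnF, had a Col0 mean of 1.11 ± 0.21, and the flank at lower coordinates 0.19 ± 0.16. The flank of trnM facing trnV (ArthCt103) was at 0.80 ± 0.40 and its other flank at -0.02 ± 0.05. The flank of trnQ facing psbK was at 0.76 ± 0.29 and that facing rps16 at 0.10 ± 0.10, and the flank of trnC facing rpoB was at 0.53 ± 0.14 against -0.07 ± 0.15. At 6 of the 20 genes with intergenic bins on both sides, the flanks differed by over 0.5 in Col0 seedlings. Other genes were high on both sides, such as trnG (ArthCt116) at 0.46 ± 0.22 and 0.47 ± 0.11, and trnT at 0.40 ± 0.08 and 0.32 ± 0.14. Each flank holds at most 2 bins, and no test was made between them.

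At the level of whole spacers, 4 of 75 were higher in IPOD in Col0 seedlings at an adjusted p under 0.05 in limma over all spacers of the kept genome, and each adjoins a tRNA gene (5.94% of all spacers were higher). None of the 6 higher spacers of the kept genome lies between 2 protein-coding genes. No LSC spacer was lower (0.99% of all spacers were), and 7 were lower at an unadjusted p under 0.05 (8.91% of all spacers). The spacer between trnL (ArthCt101) and trnF, at positions 47501 to 48150, had ratios of 0.56, 0.69 and 0.31 in the Col0 pairs, a mean of 0.52 ± 0.19 (adjusted p = 0.0042). The spacer between trnV (ArthCt103) and trnM was higher by 0.91, 1.08 and 0.38 (adjusted p = 0.0094), that between trnfM and rps14 by 0.62, 0.56 and 0.18 (0.021), and that between trnP and psaJ by 0.52, 0.53 and 0.30 (0.032). The genes rps14 and psaJ encode a ribosomal protein and a small photosystem I subunit. Between trnQ and psbK, where psbK encodes a small photosystem II subunit, the ratios were 0.71, 0.66 and 0.38 (0.056). Leaving out 1 seedling library at a time left 1 to 7 LSC spacers higher, with 1 left without Col0 IPOD library 1 or 2, 2 without Col0 input library 1 or 2, 6 without Col0 IPOD library 3 or pTAC3 IPOD library 1, and 7 without pTAC3 input library 1 or 3. Centring gave 10 higher and 1 lower. Among the lowest Col0 spacers were those between rpoC2 and rpoC1, genes of PEP core subunits, at -0.33 ± 0.17, petL and petG, genes of cytochrome b6f subunits, at -0.33 ± 0.04, and accD and psaI at -0.31 ± 0.04. Their adjusted p-values were 0.055, 0.11 and 0.073.

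The trnL (ArthCt101) to trnF spacer held the longest run of called bins, 8 bins at positions 47501 to 47900. Scaled depth there was 0.637, 0.645 and 0.639 of the library mean in Col0 input and 1.24, 1.27 and 1.04 in Col0 IPOD. In pTAC3 it was 0.612, 0.667 and 0.788 in input and 0.628, 0.690 and 0.779 in IPOD. In leaf it was 1.01, 0.920, 1.04 and 0.949 in input and 2.44, 2.22, 2.27 and 0.940 in IPOD. The Col0 IPOD libraries lay above each Col0 input library, the pTAC3 groups overlapped, and leaf IPOD library 4 lay among the leaf inputs. These bins were named for their Col0 calls, so the Col0 separation follows from the choice. Over all spacers, IPOD and input libraries did not overlap in 45.5% in Col0 and 1.98% in pTAC3 seedlings. The bins had adjusted p-values of 0.0038 to 0.021 in Col0 seedlings. Along the spacer the Col0 ratio went from 1.08 and 1.14 beside trnL to 0.13 and 0.20 beside trnF, and the leaf ratio from 1.08 to 0.52.

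In the trnQ to psbK spacer the call was the bin at positions 6701 to 6750, centred 38.5 bp from trnQ. Scaled depth was 1.40, 1.16 and 1.14 in Col0 input and 3.12, 2.85 and 1.83 in Col0 IPOD, against 0.718, 0.737 and 0.878 in pTAC3 input and 0.775, 0.873 and 0.846 in pTAC3 IPOD. The Col0 groups did not overlap and the pTAC3 groups did. The bin was named for its Col0 call, so the Col0 separation follows from the choice. The contrast with pTAC3 carries no test. Other bins called higher in Col0 seedlings lay in the spacers between trnP and psaJ (positions 66551 to 66650, mean ratio 0.73), trnfM and rps14 (36801 to 36900, 0.65), trnS (ArthCt091) and trnG (ArthCt092) (8601 to 8650, 0.87) and trnV (ArthCt103) and trnM (52001 to 52050, 0.86, and 51851 to 51900, 0.77). The bin at 36451 to 36500 between psbZ and trnG (ArthCt116) was at 0.73 in Col0 seedlings and, at 0.44, was the highest intergenic bin of pTAC3 seedlings.

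A further 3 called regions lay far from any tRNA gene and inside spacers that carry promoters of photosynthesis genes. Between atpB, encoding the beta subunit of the ATP synthase, and rbcL, encoding the large subunit of Rubisco, the bin at positions 54751 to 54800 was 2647.5 bp from the nearest tRNA gene and 182.5 bp from the nearest gene. Its scaled depth was 0.446, 0.355 and 0.401 in Col0 input and 0.809, 0.994 and 0.819 in Col0 IPOD, a mean ratio of 0.98 (adjusted p = 0.0079). The pTAC3 values were 0.315, 0.431 and 0.573 in input and 0.402, 0.465 and 0.532 in IPOD, a mean ratio of 0.10. In leaf the bin had 1.02, 0.972, 1.04 and 0.807 in input and 2.2, 2.81, 2.09 and 0.743 in IPOD. The ratio formed a local maximum: the 5 bins at the atpB end were at -0.35 to -0.16 in Col0 seedlings, and the last bins at the rbcL end at 0.24 and 0.17. Averaged over its 16 bins, the whole spacer had a ratio of 0.11 in Col0 seedlings (adjusted p = 0.71).

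Between psaA, encoding a core protein of photosystem I, and ycf3, encoding a photosystem I assembly factor, the bin at positions 42051 to 42100 was 2751.5 bp from a tRNA gene. Its ratios were 0.68, 0.82 and 0.90 in Col0 seedlings (adjusted p = 0.038), 1.47, 1.72, 1.13 and 0.06 in leaf pairs 1 to 4, and 0.21 on average in pTAC3 seedlings. Farther into the spacer, at positions 42301 to 42350, the leaf ratio was -0.36 and the Col0 ratio 0.06. The bin at positions 64401 to 64450 between psbE, encoding a subunit of cytochrome b559, and petL was 1803.5 bp from a tRNA gene, with ratios of 0.85, 0.62 and 0.21 in Col0 seedlings (adjusted p = 0.047), 1.08, 1.40, 0.79 and 0.06 in leaf, and 0.04 on average in pTAC3 seedlings. This spacer also held the lowest leaf bins, at positions 65301 to 65400, with -0.77, -0.10, -0.71 and -0.69 in pairs 1 to 4 (adjusted p = 0.043 with the replicate block).

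**Figure D4:**
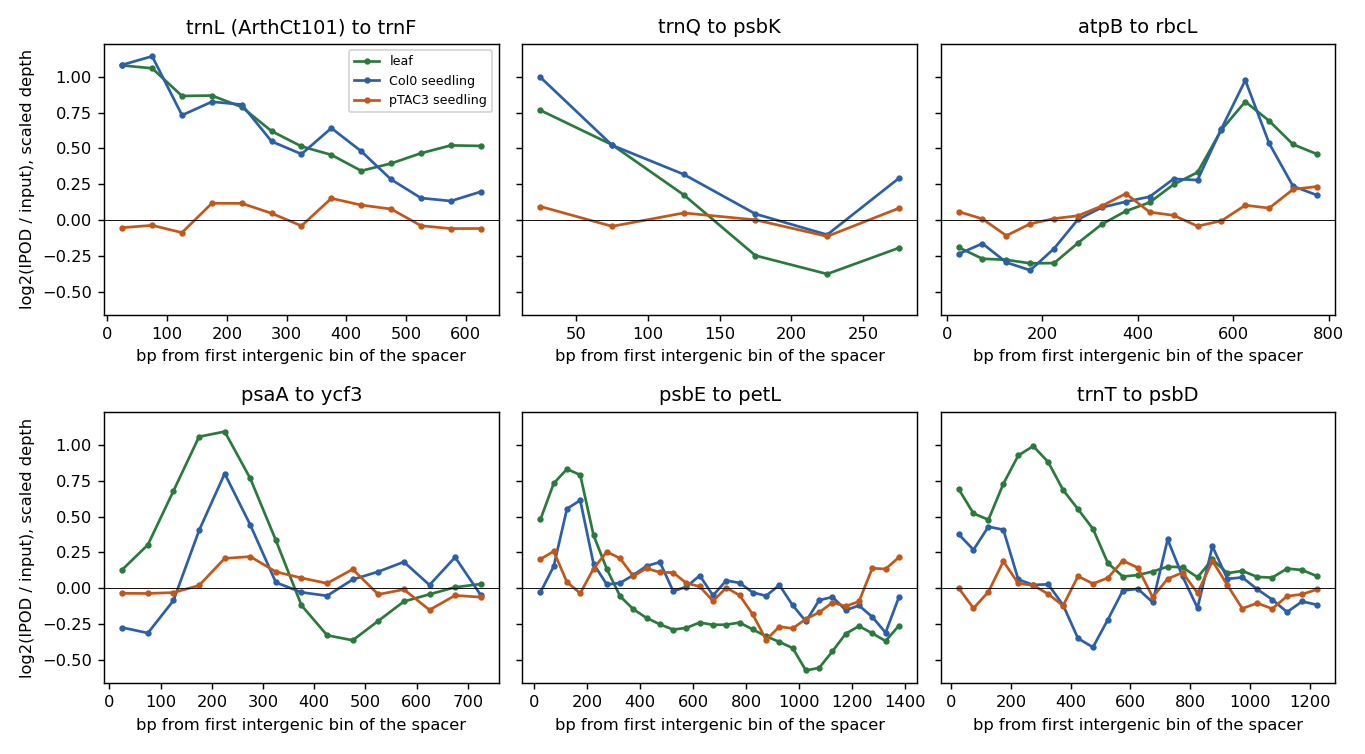
IPOD ratio (y axis, log2, mean over pairs) of each 50 bp bin along 6 spacers (x axis, bp from the first intergenic bin) in leaf, Col0 seedlings and pTAC3 seedlings. The Col0 maximum between atpB and rbcL is 0.98, that between psaA and ycf3 is 0.80, and the leaf maximum between trnT and psbD, 0.99, has a Col0 value of 0.02 at the same bin.

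Upstream of psbD, which encodes the D2 protein of photosystem II, a bin called higher in leaf with the replicate block was near 0 in Col0 seedlings. In the trnT to psbD spacer the bin at positions 31701 to 31750, centred 285.5 bp from trnT, had leaf scaled depths of 1.66, 1.54, 1.32 and 1.19 in input and 4.93, 3.82, 3.36 and 1.11 in IPOD, with ratios of 1.51, 1.27, 1.28 and -0.09 (adjusted p = 0.045 with the replicate block). In Col0 seedlings input was at 0.719, 0.734 and 0.714 and IPOD at 0.763, 0.760 and 0.696, a mean ratio of 0.02. The leaf pairs 1 to 3 were high and the Col0 groups overlapped. Whether leaf and seedling differ was not tested. The bin was chosen by its leaf call, so a lower Col0 value there cannot be read as a difference. Nearer to trnT, Col0 bins were at 0.38, 0.27, 0.43 and 0.41, and the next bin, at 235.5 bp, was at 0.06. Upstream of psbA, which encodes the D1 protein of photosystem II, the region at positions 1451 to 1550 had leaf scaled depths of 1.03, 0.863, 1.07 and 0.965 in input and 2.95, 2.82, 2.57 and 1.09 in IPOD. Its ratios were 0.92, 0.91 and 0.30 in Col0 seedlings and 0.14 on average in pTAC3 seedlings.

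With the replicate block, 8 LSC spacers were higher in leaf IPOD (16.8% of all spacers), and each adjoins a tRNA gene. The 7 that were lower (12.9% of all spacers) each lie between protein-coding genes. Without the block none was called, and 7 were higher and none lower at an unadjusted p under 0.05 (7.92% and 0.99% of all spacers). The higher ones included trnG (ArthCt116) to trnfM at 1.02, 0.99, 1.00 and 0.01, psbA to trnK at 1.04, 1.24, 0.90 and -0.001, and trnW to trnP at 0.75, 0.52, 0.49 and 0.28. The lower ones included rpl14 to rpl16, between genes of ribosomal proteins, at -0.45, -0.39, -0.37 and -0.32, and rps2 to rpoC2, between a ribosomal protein gene and a PEP subunit gene, at -0.49, -0.68, -0.41 and -0.07. In Col0 seedlings rpl14 to rpl16 was at 0.05 ± 0.15 and rps2 to rpoC2 at -0.05 ± 0.15. The block calls ended without pair 1 or pair 3, were 6 higher and 4 lower without pair 2, and 27 higher and 14 lower without pair 4.

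In leaf and Col0 seedlings the 75 spacers split by neighbour as the bins did. In leaf 27 of the 33 spacers beside a tRNA gene were above 0, with a median of 0.26, and 6 of the 42 between protein-coding genes, with a median of -0.19. In Col0 seedlings the counts were 20 of 33 and 16 of 42, with medians of 0.12 and -0.04. In pTAC3 seedlings they were 27 of 33 and 26 of 42, with medians of 0.03 and 0.02. Counts above 0 depend on the scaling. With centred libraries, the intergenic bins above 0 went from 314 to 220 in pTAC3 seedlings. They went from 258 to 327 in leaf and from 254 to 332 in Col0 seedlings. Over all LSC spacers the medians were -0.04, -0.01 and 0.02. In pTAC3 seedlings limma called no spacer in either direction, with 1 higher and none lower at an unadjusted p under 0.05.

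**Figure D5:**
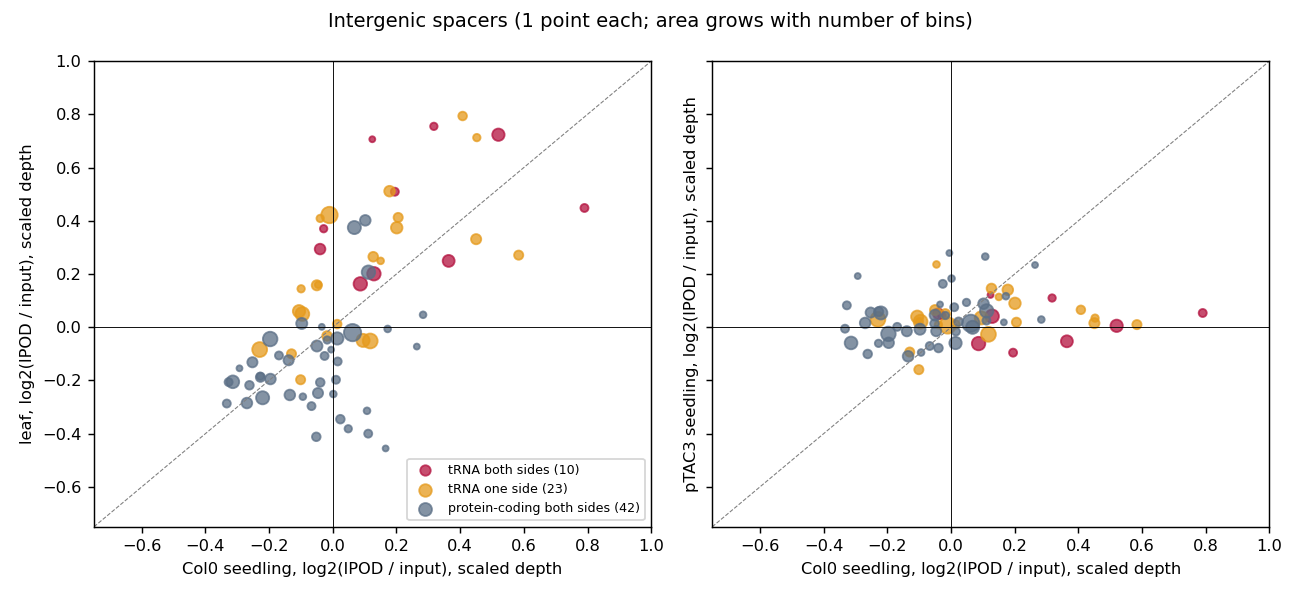
Mean IPOD ratio of each of the 75 spacers (1 point each, coloured by neighbouring genes, area by number of bins) in leaf (left, y axis) and pTAC3 seedlings (right, y axis) against Col0 seedlings (x axis), all log2. Leaf spacers run from -0.46 to 0.79 and Col0 spacers from -0.33 to 0.79, and pTAC3 spacers stay between -0.16 and 0.28.

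A list of spacers upstream of 14 protein-coding and 5 tRNA genes, most with well-known promoters, held 15 spacers, because some are shared. It was drawn up from gene orientation known from textbooks. In Col0 seedlings 1 of the 15 was called higher, trnV (ArthCt103) to trnM, and none lower, with a median of 0.09 against -0.01 over all LSC spacers. The 7 beside a tRNA gene had a median of 0.36, and the 8 between protein-coding genes 0.04. In pTAC3 seedlings the 15 had a median of 0.00 with none called, and 13 of 15 had a lower value than in Col0 seedlings, as 35 of all 75 LSC spacers did. With centred libraries (also added after seeing the data) the counts were 14 of 15 and 55 of 75. Among spacers upstream of genes read by NEP, rpoB to trnC, with the promoter of the gene for the PEP beta subunit, was at 0.12, rbcL to accD, upstream of a subunit gene of acetyl-CoA carboxylase, at 0.01, and clpP to psbB, upstream of a protease subunit gene and, on its other side, of psbB, at 0.10. Some spacers upstream of photosynthesis genes had Col0 values as near 0, with psaA to ycf3 at 0.07, psbE to petL at 0.06 and trnT to psbD at -0.01. Higher were trnQ to psbK at 0.58 and psbA to trnK at 0.41, both beside a tRNA gene, and atpB to rbcL was at 0.11. Spacers upstream of atpI and petA were at -0.04 and -0.17, and that upstream of ndhJ at -0.09.

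Between genotypes, the difference of the IPOD ratios (pTAC3 minus Col0) was tested directly over the 12 seedling libraries. Limma called no intergenic bin in either direction, with 18 higher and 38 lower at an unadjusted p under 0.05 (4.64% and 3.71% of all bins). Of these 38 lower bins, 18 were among the 81 bins within 100 bp of a tRNA gene and 6 among the 248 beyond 1000 bp. No LSC spacer was called either, with 3 higher and 5 lower unadjusted (3.96% and 8.91% of all spacers). The calls depended on the fit. With the replicate block, whose numbers paired the pTAC3 but not the Col0 libraries, 12 bins were higher and 39 lower (2.15% and 5.11% of all bins). That fit also called 2 LSC spacers higher and 6 lower (2.97% and 10.9% of all spacers), and each of the 6 adjoins a tRNA gene. None of the 11 lower spacers of the kept genome lies between 2 protein-coding genes. Robust trended variances without the block gave 16 lower bins, and centring gave 4 lower bins and 2 lower spacers. The largest negative differences among spacers of at least 3 bins were those of trnV (ArthCt103) to trnM, -0.74 ± 0.23 (SE, adjusted p = 0.19), trnQ to psbK, -0.57 ± 0.26 (0.33), and trnL (ArthCt101) to trnF, -0.51 ± 0.13 (0.090). The pTAC3 pairs lay below each Col0 pair in these 3, as in 10 of the 75 LSC spacers and 16.8% of all spacers. At trnL to trnF the pTAC3 pairs were at -0.02, -0.003 and 0.04. Leaving out pTAC3 input library 1 gave 5 lower bins, leaving out Col0 IPOD library 3 gave 2, and either gave 1 lower spacer.

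The 6 bins called lower in Col0 IPOD lay in 4 spacers, and their number rose to 34, 40 and 75 under the alternatives given above. The 2 adjoining bins at positions 65901 to 66000 between petL and petG had scaled depths of 0.979, 0.951 and 1.06 in Col0 input and 0.666, 0.696 and 0.727 in Col0 IPOD (adjusted p = 0.026 and 0.037). In pTAC3 they had 0.875, 1.02 and 0.880 in input and 0.852, 0.947 and 0.963 in IPOD, and in leaf a mean ratio of -0.23. The strongest negative Col0 ratio, -0.64, was at positions 6401 to 6450 between rps16 and trnQ, 190.5 bp from trnQ, with 0.658, 0.669 and 0.669 in input and 0.392, 0.342 and 0.477 in IPOD. Leaf had 0.16 there. The others lay between rps18 and rpl20 (-0.50) and at 2 places between accD and psaI (both -0.44). Without any 1 of the Col0 input libraries, or without Col0 IPOD library 1 or 2, no lower bin was called. Without pTAC3 IPOD library 1 12 bins were lower, without pTAC3 IPOD library 2 1, and without pTAC3 input library 2 2.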

How the data were processed

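Per the labels, 20 libraries were sequenced: 4 IPOD and 4 input from leaf chloroplasts, and 3 of each from Col0 and pTAC3 seedlings. The authors deposited whole-number coverage for each of 154477 plastid positions, a signal and not a count of reads; the number of reads, and with it the counting error, is unknown. Per the submitters' processing notes, Trim Galore 0.4.1, Bowtie2 2.2.8.9, bedtools 2.25.0 and TAIR10 were used; read length, filters, treatment of duplicates and placement of repeat reads were not given in the sources used here. Coverage was averaged in 50 bp bins, and 1 copy of the inverted repeat was kept. Gene positions came from a RefSeq table of 129 plastid genes, which carries no strand; positions of repeat genes mirrored around the same sum in 20 of 20 libraries, so numbering matched TAIR10. Each library was divided by its mean bin, 10% of the median scaled bin was added before log2, and IPOD was compared with input in limma 3.58.1 (R 4.3.3), Benjamini-Hochberg adjusted at 0.05 over all bins or all spacers, fitting all 12 seedling libraries together and leaf alone. On this log2 scale, changes of low bins are understated. The procedure was tested on simulated data.

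A read covers many bases, so neighbouring bins, and bins beside a gene, share reads. Within 1 library set, deviations of IPOD and input libraries of the same number correlated over all bins at 0.84, 0.81, 0.92 and 0.63 in leaf and 0.77, 0.23 and 0.75 in pTAC3, so the numbers were taken as pairs there. The best correlation with another number was nearly as high for leaf libraries 1 and 3 (0.80 and 0.88), and lower for the rest (0.29 and 0.27 in leaf, -0.27, 0.10 and 0.18 in pTAC3). In Col0 the same-number correlations were 0.26, 0.22 and 0.023, and the best with another number were 0.014, -0.041 and 0.073. Number 3 thus correlated no better with its own number, and the Col0 numbers were not taken as pairs. Col0 values given per pair join libraries by number only. Spacers named in the text were those called, the regions of called bins with the largest summed ratios, the 5 highest and 3 lowest spacers of at least 3 bins, and spacers upstream of a list of promoter genes. The members, classes and lists were chosen with earlier results of these data known. Classes by gene orientation, and sequences, were not analysed here. Alternatives were another pseudocount, a filter on low input, other scalings, robust trended variances, the replicate block, bins wholly outside genes, and leaving out libraries.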

Additional observations from a re-analysis of the deposited data

Results flagged for a closer look

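Leaf results with 4 pairs were checked for a pair whose gap to the nearest other pair was an unusually large share of the range (Dixon's critical value at 95%). Of 51 leaf values checked, 9 were flagged. Chance flags about 1 in 20 independent values, but these values share the same 4 pairs and overlapping bins. The number flagged therefore cannot be set against that rate. In 6 of the 9 the outlying pair was pair 4 at the low end and the other pairs were high: the difference between bins within 100 bp and over 1000 bp from a tRNA gene (0.086 against 0.62 to 0.71), the difference between bins beside a tRNA gene and between protein-coding genes (-0.0013 against 0.35 to 0.42), the mean of bins between 2 tRNA genes (-0.19 against 0.44 to 0.51), and the spacers trnT to psbD (-0.21 against 0.57 to 0.70), trnG (ArthCt116) to trnfM (0.012 against 0.99 to 1.02) and trnL (ArthCt101) to trnF (-0.0042 against 0.90 to 1.05). The spacer ycf4 to cemA was lowest in pair 4 as well (-0.21 against -0.11 to -0.09). The spacer atpF to atpH was lowest in pair 3 (-0.46 against -0.25 to -0.20), and psaJ to rpl33 was highest in pair 3 (-0.14 against -0.31 to -0.28).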

How the results depend on the processing

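Of 398 recomputed values, 326 stayed within 1.5 times the count or 1 SD of the difference reported and 72 moved. Of the 116 recomputed class differences 112 stayed within 1 SD and 8 changed sign, all of them pTAC3 differences near 0 (3 by distance, 5 by neighbouring gene type). The class differences under the replicate block equal the reported ones by construction. They could not move, and they are counted among those that stayed. Call counts of 0 that stayed at 0 are counted among the 326. Leaving out 1 library seldom shifts a mean by 1 SD between pairs, so this margin is lenient. Leaf: with the replicate block 22 bins were higher and 7 lower, and 8 spacers higher and 7 lower, where none was called without it; with the block and centred libraries (added after seeing the data) 17 were higher; leaf libraries 1 and 3 alone gave 183 and 169, and 2 and 4 alone none (3 higher unadjusted). Without leaf IPOD library 4 and with no block, 18 bins were higher. Leaving out libraries or pairs, 0 to 148 bins were higher and 0 to 52 lower, and 0 to 27 and 0 to 14 spacers; the block fits without a pair were added after seeing the data. Col0 seedlings, higher and lower bins: centring on the median bin gave 49 higher (and 10 spacers higher, 1 lower), scaling to the large single-copy region 39 higher, robust trended variances 47 and 34, the replicate block, whose numbers did not pair here, 85 and 75 (12 and 13 spacers), and the 6 Col0 libraries alone 67 and 40. Leaving out 1 library gave 1 to 44 higher and 0 to 15 lower bins, and 1 to 7 and 0 to 2 spacers. The genotype difference: centring gave 4 lower bins and 2 lower spacers, the large single-copy scale 2 lower bins, robust variances 16, and the replicate block 12 higher and 39 lower bins and 2 and 6 spacers; leaving out 1 library gave 0 to 5 lower bins and 0 to 1 lower spacers, and 0 higher. The pTAC3 seedlings had 0 calls under each alternative, block included. Without 1 library the pTAC3 difference by distance ran from -0.048 to 0.075. The cause was not tested. With centred libraries the median bin was at -0.02 in leaf, from -0.13, and at -0.02 in the genotype difference, from 0.11. Depth limited the 68 Col0 members with input below 20% of the library mean.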
